A study of Mus musculus with 6 samples.

Results

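Imprinted genes are transcribed mainly from the copy inherited from 1 parent. A list of 39 such mouse genes was followed across pools of preimplantation embryos in which the transcription factor TEAD4 had or had not been targeted for degradation by an injected antibody. A gene was measured through its array row when that row carried its symbol alone. This held for 34 of the 39 genes, which are 34 of 30175 genes measured in this way. Of these 34, 21 are known as paternally expressed and 12 as maternally expressed, and Gnas uses either copy depending on the transcript. H19, Snrpn and Meg3 share a row with other symbols and were not tested, and for Zrsr1 and Slc22a3 no row was found.

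The embryos came from B6C3F1 x CD1 matings and were injected as zygotes into the ooplasm. All of them received dextran beads and the mRNA of mCherry-Trim21, a fluorescent form of a ubiquitin ligase that binds antibodies and hands the protein they hold to the proteasome. There were 3 groups: mCherry-Trim21 mRNA with no antibody (Trim21 mRNA), the same with an antibody against green fluorescent protein, which has no target in a wildtype embryo (anti-GFP), and the same with an antibody against TEAD4 (anti-TEAD4). Each group was represented by 2 pools of 10 embryos, called replicates a and b, and each pool by 1 Affymetrix Mouse Transcriptome Array. The labels give Theiler stage 5, 4 days post coitum, 96 h in culture and 72 h after injection for every pool. They give a normal cavity for both control groups, and no cavity or a small and aberrant one for the anti-TEAD4 pools. The sample titles call the control pools blastocysts and the anti-TEAD4 pools morulae/blastocysts. A difference in stage therefore cannot be told apart from the anti-TEAD4 treatment. Antibody depletion removes protein and leaves the gene in place, so that Tead4 itself was neither deleted nor edited. Levels are log2 intensities as deposited, and differences are differences of log2 group means.

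Imprints are DNA methylation marks laid down differently in egg and sperm, and they survive the wave of demethylation that passes over the genome between fertilization and implantation. Each imprinted cluster has a control region whose mark sets which parental copy is read, often through a long noncoding RNA such as Airn or Kcnq1ot1 that is made from 1 copy and silences neighbours. A smaller class is imprinted by maternal histone H3 lysine 27 trimethylation without DNA methylation and keeps its imprint mainly in the trophectoderm and its descendants. Many imprinted genes act on placental and fetal growth, and the trophectoderm, whose identity depends on TEAD4, is the lineage that builds the placenta. These arrays report the summed RNA of both parental copies and do not show which copy was transcribed.

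The array of anti-TEAD4 replicate a stood apart from the rest. Its mean correlation with the other arrays was 0.975 against 0.986 to 0.989, and its median over all rows was 4.50 against 4.19 to 4.29. Olfactory and vomeronasal receptor genes, which belong to sensory neurons, were higher on it by a median of 0.24 on the log2 scale than on the other arrays. Of 6 trophectoderm markers measured, 4 lay below all 4 control arrays in both anti-TEAD4 arrays, and their summed linear intensity was 271000 to 277000 in the control pools, but 36000 and 69500 in anti-TEAD4 replicates a and b. The summed intensity of 5 inner cell mass markers was 86700 to 108000 in the control pools, and 73900 and 122000 in those replicates. Nanog, the brightest of them, weighs most in this sum. Of the 5, Sox2 and Fgf4 lay above all 4 control arrays in both anti-TEAD4 arrays (beside 11.4% of all genes) and 0 lay below. Marker genes of the oocyte summed to 408 to 502 in the control pools, 201 and 685 in replicates a and b, and those of cumulus cells to 145 to 165, 212 and 182. The part of these shifts in the results on imprinted genes was not tested.

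No imprinted gene passed an adjusted p of 0.05 by limma in any of the 4 comparisons, where 0% of all genes passed as well. The lowest adjusted p among them was 0.225, for Impact against both control groups together. At an unadjusted p under 0.05 in that comparison, 5 of 34 imprinted genes were higher with anti-TEAD4 (14.7%, against 4.06% of all genes) and 2 were lower (5.88%, against 4.44%). Impact, Mcts2, Peg10, Cdkn1c and Ascl2 were the 5 higher genes, and Phlda2 and Slc38a4 the 2 lower ones. Counted without a test, 7 of 34 imprinted genes lay in both anti-TEAD4 arrays above all 4 control arrays (20.6%, against 11.4% of all genes), the same 5 with Nnat and Zim1. Phlda2 and Slc38a4 were the 2 that lay below all control arrays (5.88%, against 7.68%). The median difference over the 34 genes was 0.05, beside 0.06 over all genes.

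**Figure D1:**
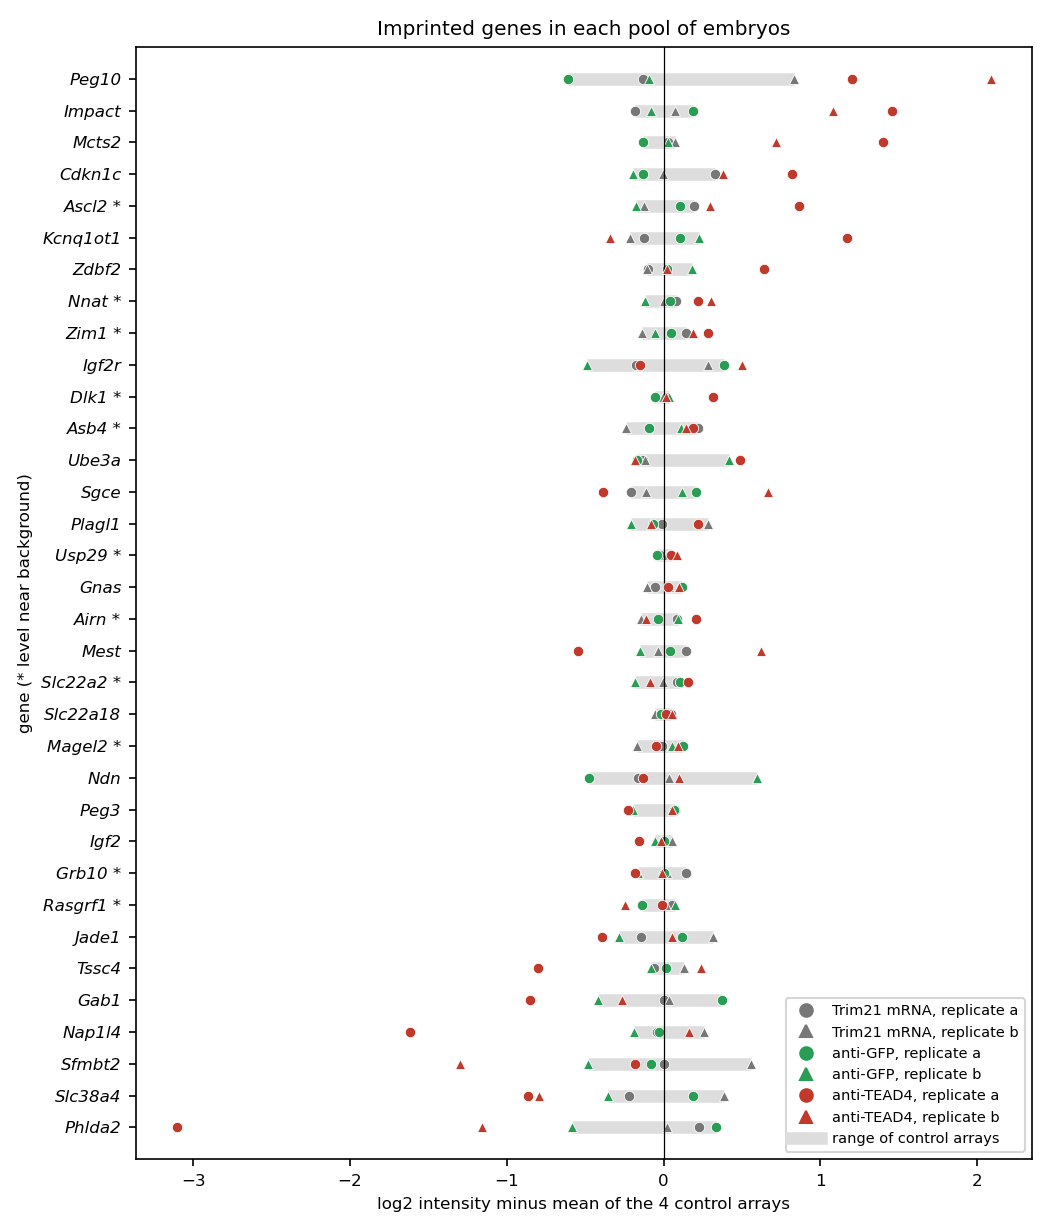
Each row is 1 of the 34 measured imprinted genes, ordered by the difference between the anti-TEAD4 mean and the control mean. Points give each array's log2 intensity minus the mean of the 4 control arrays, and grey bars span the control arrays. Both red points lie above the grey bar for 7 genes and below it for 2, and an asterisk marks the 11 genes whose level was near background.

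Against each control group alone the same genes led. With Trim21 mRNA as the reference, 3 imprinted genes were higher at an unadjusted p under 0.05 (Peg10, Impact and Mcts2, against 3.18% of all genes) and 2 were lower (Phlda2 and Slc38a4, against 3.32%). With anti-GFP as the reference, 4 were higher (the same 3 and Cdkn1c, against 2.84% of all genes) and Phlda2 and Slc38a4 were again the 2 lower ones (against 3.76%). These comparisons share the anti-TEAD4 arrays, so that they are not separate pieces of evidence. RNA came from whole pools, and fewer cells of a type cannot be told apart from less RNA per cell.

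A level was called near background when it lay under the 95th percentile of the olfactory and vomeronasal receptor genes on every array. This applied to 11 of the 34 imprinted genes (32.4%, beside 40.5% of all genes), namely Airn, Usp29, Zim1, Grb10, Ascl2, Dlk1, Asb4, Nnat, Magel2, Slc22a2 and Rasgrf1. Of the 23 other imprinted genes, 4 lay above all control arrays in both anti-TEAD4 arrays (17.4%, beside 8.25% of all genes not near background) and 2 lay below them (8.7%, beside 11.6%).

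Impact, which counters the kinase GCN2 and so holds back the response to amino acid shortage, was the imprinted gene with the lowest p. Its log2 intensities were 9.87 and 10.12 in the Trim21 mRNA pools, 10.24 and 9.97 in those with anti-GFP, and 11.51 and 11.13 in the anti-TEAD4 pools. Both anti-TEAD4 pools lay above every control pool, and the control groups overlapped each other. The difference from both control groups was 1.27 (standard error 0.18, 95% interval 0.82 to 1.72), which is 2.41-fold (limma, adjusted p = 0.225), and placed Impact at rank 78 of 30175 genes by p. Against Trim21 mRNA alone it was 1.33 and against anti-GFP alone 1.22.

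Mcts2 is a retrogene copy of Mcts1 that lies within the gene H13 and encodes a translation factor. It had 6.07 and 6.11 in the Trim21 mRNA pools, 5.91 and 6.07 in those with anti-GFP, and 7.44 and 6.76 in the anti-TEAD4 pools. The control pools sat within a narrow band below both anti-TEAD4 pools. The difference was 1.06 (standard error 0.22, 95% interval 0.52 to 1.60), or 2.08-fold (limma, adjusted p = 0.357). Mcts1, looked up after these values were seen, had 8.67, 8.95, 8.70 and 8.97 in the control pools and 9.25 and 9.00 in the anti-TEAD4 pools, a difference of 0.30 (standard error 0.17, limma adjusted p = 0.646). The copies are alike in sequence, so the assignment of the Mcts2 signal is uncertain, and signal from genomic DNA, which was not digested before labelling, was not tested for this intronless gene. The host gene H13 had a difference of 0.06 (standard error 0.13).

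Peg10 and Sgce are paternally expressed neighbours that share a control region. Peg10 is a domesticated retrotransposon needed for the placenta, and Sgce encodes a sarcoglycan of the cell membrane. Peg10 had 5.43 and 6.39 in the Trim21 mRNA pools, 4.95 and 5.47 in those with anti-GFP, and 6.76 and 7.65 in the anti-TEAD4 pools. The anti-TEAD4 pools again lay above all control pools, with Trim21 mRNA replicate b the nearest of them. The difference from both control groups was 1.65 (standard error 0.39, 95% interval 0.68 to 2.61), or 3.13-fold (limma, adjusted p = 0.402). It was 1.30 against Trim21 mRNA alone and larger, 1.99, against anti-GFP alone. Sgce had 5.17 and 5.26, then 5.58 and 5.49, then 4.99 and 6.04, so that 1 anti-TEAD4 pool lay below and the other above every control pool, and its difference was 0.14 (95% interval -0.61 to 0.89). Asb4, the third member from this region and near background, had a difference of 0.17 (95% interval -0.27 to 0.60).

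**Figure D2:**
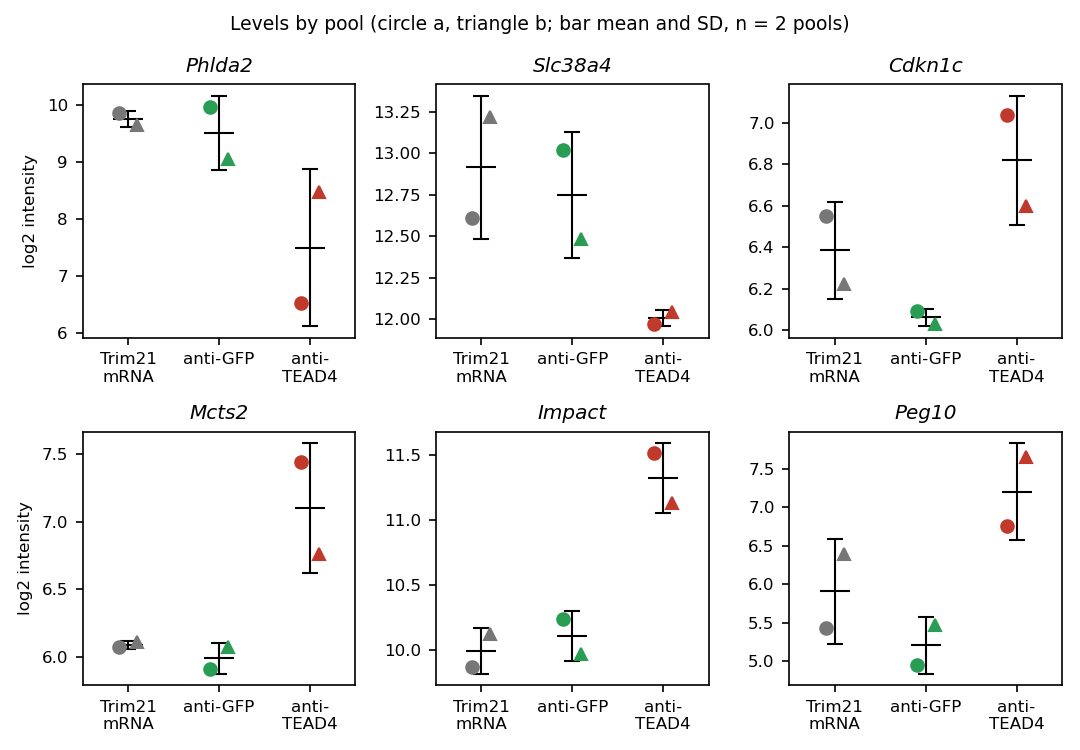
Log2 intensity of the 6 imprinted genes that were not near background and whose anti-TEAD4 pools lay beyond all control pools. Circles are replicate a and triangles replicate b, with the group mean and SD (n = 2 pools) in black, and each panel has its own axis that does not start at 0. Phlda2 and Slc38a4 lie lower with anti-TEAD4, and Cdkn1c, Mcts2, Impact and Peg10 higher.

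The Kcnq1ot1 cluster supplied 7 of the measured genes, of which 1 was lower and 2 were higher at an unadjusted p under 0.05 (beside 4.44% and 4.06% of all genes), with a median difference of 0.04. Phlda2, a maternally expressed gene that limits placental growth, had 9.85 and 9.65 in the Trim21 mRNA pools, 9.96 and 9.04 in those with anti-GFP, and 6.52 and 8.47 in the anti-TEAD4 pools. Both anti-TEAD4 pools were below every control pool, and they differed from each other by more than the control pools did. The difference was -2.13 (standard error 0.58, 95% interval -3.57 to -0.69), or 4.38-fold lower (limma, adjusted p = 0.467). Its size moved from -3.11 on replicate a alone to -1.16 on replicate b alone.

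Cdkn1c, a maternally expressed inhibitor of cyclin-dependent kinases and a brake on growth, went the other way from its neighbour Phlda2. It had 6.55 and 6.22, then 6.09 and 6.03, and 7.04 and 6.60 with anti-TEAD4. The lower anti-TEAD4 pool stood just above the highest control pool, Trim21 mRNA replicate a. The difference was 0.60 (standard error 0.19, 95% interval 0.13 to 1.06), or 1.51-fold (limma, adjusted p = 0.507). Ascl2, a transcription factor needed for the spongiotrophoblast of the placenta, was near background on all arrays, at 3.98 and 3.66, then 3.89 and 3.61, then 4.65 and 4.08. Its difference was 0.58 (standard error 0.22, limma, adjusted p = 0.579), and the anti-TEAD4 array with the higher value is the one on which receptor genes of sensory neurons were raised as well.

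The remaining genes of the cluster split by pool. Kcnq1ot1, the paternally expressed noncoding RNA that silences the cluster in cis, had 4.71 and 4.62, then 4.94 and 5.06, and 6.00 and 4.49 with anti-TEAD4, so that replicate a was above and replicate b below all control pools. Nap1l4, a nucleosome assembly protein, had 11.65 and 11.95, then 11.66 and 11.50, then 10.07 and 11.85. Tssc4, which in human cells takes part in assembly of the splicing machinery, had 7.52 and 7.71, then 7.60 and 7.50, then 6.78 and 7.82. For both, replicate a was below every control pool and replicate b was not. The differences from both control groups were 0.41 (standard error 0.41), -0.73 (standard error 0.49) and -0.28 (standard error 0.30) in this order. Slc22a18, a membrane transporter, stayed between 4.71 and 4.82 on all arrays. Kcnq1ot1 runs antisense through Kcnq1, as Airn does through Igf2r, and how the rows keep the strands apart is not given in the sources used here.

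Promoter sequences are shown for the 4 imprinted genes beyond all control pools with the largest differences among those with an entry in RefSeq (GRCm38.p6), to show how unlike in CpG content these start regions are. Each runs from 250 bases before to 50 after the start of transcription, on the gene's own strand, with every CpG, the dinucleotide that carries DNA methylation, in capitals. They are Phlda2 (chr7:143502475-143502774, minus strand), Mcts2 (chr2:152686898-152687197, plus strand), Slc38a4 (chr15:97055907-97056206, minus strand, the outermost of 3 starts) and Ascl2 (chr7:142969215-142969514, minus strand). H19, Cdkn1c, Nap1l4, Peg10, Sgce and Impact were not among the 33 genes matched.
Phlda2: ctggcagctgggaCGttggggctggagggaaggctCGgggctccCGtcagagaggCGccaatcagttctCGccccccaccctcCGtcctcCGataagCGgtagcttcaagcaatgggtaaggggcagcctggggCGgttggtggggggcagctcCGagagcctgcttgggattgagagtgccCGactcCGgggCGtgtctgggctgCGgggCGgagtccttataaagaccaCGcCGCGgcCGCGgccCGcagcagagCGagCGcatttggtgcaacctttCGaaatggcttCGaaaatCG
Mcts2: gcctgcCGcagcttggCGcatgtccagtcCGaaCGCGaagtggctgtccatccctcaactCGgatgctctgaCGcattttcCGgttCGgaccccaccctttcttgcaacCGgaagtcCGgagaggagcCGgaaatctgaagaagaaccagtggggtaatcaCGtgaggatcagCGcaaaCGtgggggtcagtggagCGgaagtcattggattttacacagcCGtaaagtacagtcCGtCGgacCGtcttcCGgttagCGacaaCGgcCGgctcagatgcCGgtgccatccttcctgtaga
Slc38a4: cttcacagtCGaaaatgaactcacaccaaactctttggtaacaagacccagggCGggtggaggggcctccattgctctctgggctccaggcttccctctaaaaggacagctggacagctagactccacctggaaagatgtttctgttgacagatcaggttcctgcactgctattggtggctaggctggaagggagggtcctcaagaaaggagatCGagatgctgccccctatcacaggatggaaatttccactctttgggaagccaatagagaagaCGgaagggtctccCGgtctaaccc
Ascl2: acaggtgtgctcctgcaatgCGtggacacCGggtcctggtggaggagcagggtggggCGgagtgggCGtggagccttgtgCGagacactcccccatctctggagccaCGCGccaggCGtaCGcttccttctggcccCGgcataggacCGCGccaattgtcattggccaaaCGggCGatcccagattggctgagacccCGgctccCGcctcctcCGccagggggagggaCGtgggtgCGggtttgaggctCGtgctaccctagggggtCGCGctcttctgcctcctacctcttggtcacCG
The windows of Phlda2, Mcts2 and Ascl2 hold 26, 25 and 23 CpG and that of Slc38a4 holds 5. For each gene only the outermost start was counted, and which start was in use in these embryos was not tested. Over 33 imprinted genes the median was 13, beside 7 over the windows of 27025 genes. The core of the TEAD motif, GGAATG on either strand, occurred in 5 of 33 windows (15.2%, beside 14.7% of all) and in none of the 4 shown. The methylated hexamer bound by ZFP57, TGCCGC on either strand, occurred in 8 of 33 (24.2%, beside 11.6% of all), among them that of Mcts2. A match describes letters and not binding, and windows with more CpG have more chances to hold the second motif.

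Slc38a4, Sfmbt2, Gab1 and Jade1 belong to the class imprinted through maternal H3 lysine 27 trimethylation and are paternally expressed in extraembryonic cells. The difference from both control groups was negative for 4 of 4, with a median of -0.65 beside 0.06 over all genes. At an unadjusted p under 0.05, 1 of them was lower (beside 4.44% of all genes). None of them was near background, and of all genes not near background 11.6% lay below every control pool and 8.25% above. Slc38a4, an amino acid transporter important in the placenta, had 12.61 and 13.22, then 13.02 and 12.48, and 11.97 and 12.04 with anti-TEAD4. Here the anti-TEAD4 pools lay close together below all control pools, and the control pools spread more widely within each group. The difference was -0.83 (standard error 0.24, 95% interval -1.43 to -0.22), or 1.77-fold lower (limma, adjusted p = 0.501).

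Sfmbt2, a polycomb group protein needed for the trophoblast, had 8.15 and 8.71, then 8.07 and 7.67, then 7.97 and 6.85, a difference of -0.74 (standard error 0.36, 95% interval -1.64 to 0.16). Gab1, an adaptor of receptor tyrosine kinases with a role in the placenta, had 7.55 and 7.58, then 7.92 and 7.13, then 6.69 and 7.28, a difference of -0.56 (standard error 0.28, 95% interval -1.27 to 0.15). For each, 1 anti-TEAD4 pool lay within the range of the control pools, replicate a for Sfmbt2 and replicate b for Gab1. Jade1, a subunit of a histone acetyltransferase complex, had 7.24 and 7.70, then 7.50 and 7.10, then 6.99 and 7.44, with a difference of -0.17 (standard error 0.23). Its replicate b also lay within the range of the control pools. The difference of Jade1 was -0.395 without replicate b and 0.055 without replicate a, so that it changed sign. Between the control groups the difference of these genes was also negative for 4 of 4, with a median of -0.17. Relative to the control mean, their median was 0.15 in anti-GFP replicate a and -0.38 in anti-GFP replicate b. In Trim21 mRNA replicates a and b it was -0.07 and 0.35. Trophectoderm markers moved with the same anti-TEAD4 pools, and their part was not tested.

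From the classical growth pairs, Igf2, Igf2r, Airn, Peg3, Usp29 and Dlk1 had no unadjusted p under 0.05 against both control groups (limma). Intervals as wide as that of Igf2r do not show that a difference was small. H19 and Meg3 were not tested, and their levels lay around the background cuts of the arrays (4.46 to 4.92). Igf2, the fetal growth factor, had 5.10 and 5.16, then 5.11 and 5.05, then 4.95 and 5.09, a difference of -0.09 (standard error 0.12), and H19, whose row is shared with Mir675, had 4.52 and 4.43, then 4.42 and 4.12, then 4.56 and 4.32. Igf2r, the receptor that clears IGF2, had 8.91 and 9.37, then 9.47 and 8.60, then 8.94 and 9.59. Its pools spread by more within each group than the groups differed, with a difference of 0.18 (95% interval -0.64 to 0.999). Airn, the noncoding RNA that silences Igf2r on the paternal copy, had 4.08 and 3.85, then 3.96 and 4.09, then 4.20 and 3.88. Peg3, a zinc finger protein, had 5.62 and 5.60, then 5.61 and 5.35, then 5.32 and 5.60, and its difference was -0.09 (standard error 0.15). Usp29, read from the same promoter region as Peg3, stayed between 3.57 and 3.70 and thus near background. Zim1, a zinc finger gene of that cluster, had 4.06 and 3.78, then 3.96 and 3.86, then 4.20 and 4.10, above all control pools by a narrow step at background level (difference 0.24, limma adjusted p = 0.658). Dlk1, a noncanonical Notch ligand, had 3.88 and 3.86, then 3.81 and 3.90, then 4.18 and 3.88, and Meg3, whose row carries several symbols, 4.51 and 4.56, then 4.37 and 4.43, then 4.72 and 4.37.

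Among the other imprinted genes, Mest, a paternally expressed hydrolase, showed the same split as Sgce. It had 6.32 and 6.14, then 6.22 and 6.03, and 5.63 and 6.80 with anti-TEAD4, with a difference of 0.04 (95% interval -0.80 to 0.87). Zdbf2 had 6.01 and 6.00, then 6.13 and 6.29, then 6.75 and 6.13, where replicate a alone stood out (difference 0.33, standard error 0.20). Nnat, a small membrane protein of the nervous system, had 3.90 and 3.82, then 3.86 and 3.70, then 4.04 and 4.12, a difference of 0.26 (standard error 0.13, limma adjusted p = 0.619) near background. Ube3a, the ubiquitin ligase of Angelman syndrome, whose imprint is confined to neurons, had 7.93 and 7.94, then 7.89 and 8.48, then 8.55 and 7.88. Its highest values came from 1 control pool and 1 anti-TEAD4 pool, and the difference was 0.16 (standard error 0.26). Snrpn, which shares its row with Snurf, had 10.40 and 10.27, then 10.28 and 10.33, then 10.02 and 10.30. The transcription factor Plagl1, the G protein subunit Gnas, the growth regulator Grb10, the MAGE family genes Ndn and Magel2, the cation transporter Slc22a2 and the exchange factor Rasgrf1 had differences between -0.13 and 0.07, each smaller than its standard error.

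**Figure D3:**
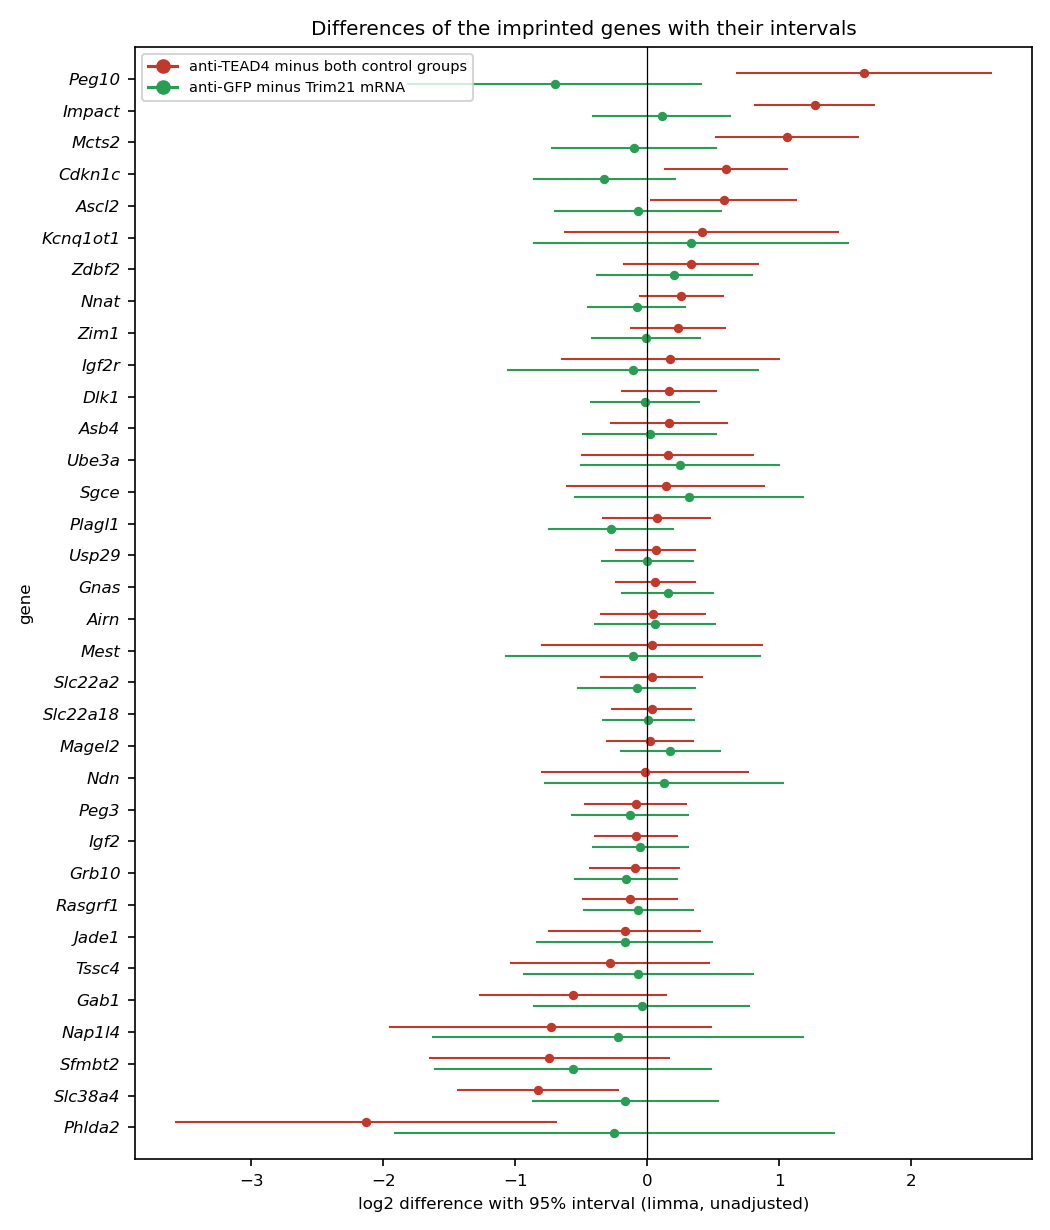
Log2 difference with its unadjusted 95% interval (limma) for each of the 34 imprinted genes, in red for anti-TEAD4 minus both control groups and in green for anti-GFP minus Trim21 mRNA. The red interval excludes 0 for 7 genes, 5 higher and 2 lower, and the green one for 0 genes.

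Set side by side, 21 paternally expressed genes had a median difference of 0.05 and 12 maternally expressed genes one of 0.10. At an unadjusted p under 0.05, 1 paternally expressed gene was lower and 3 were higher, and 1 maternally expressed gene was lower and 2 were higher, beside 4.44% of all genes lower and 4.06% higher. Of 11 measured genes with a known role in placental growth, 2 were lower (Phlda2 and Slc38a4) and 3 higher (Peg10, Cdkn1c and Ascl2) at that threshold, beside the same shares of all genes, with a median of -0.09. Between the control groups, anti-GFP minus Trim21 mRNA, the difference of these genes was negative for 11 of 11, with a larger median of -0.16, and 0 had an unadjusted p under 0.05. Relative to the control mean, their median was 0.04 in anti-GFP replicate a and -0.19 in anti-GFP replicate b. In Trim21 mRNA replicates a and b it was 0.075 and 0.055.

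The antibody as such was addressed by anti-GFP against Trim21 mRNA. At an unadjusted p under 0.05 no imprinted gene was lower (against 0.351% of all genes) and none was higher (against 0.742%). Peg10 had the lowest p, with a difference of -0.70 (standard error 0.44, 95% interval -1.81 to 0.41). The median over the 34 genes was -0.07, beside 0.02 over all genes, with 22 negative and 11 positive differences. It was -0.0075 without anti-GFP replicate b and -0.0975 without anti-GFP replicate a, so that replicate b carried most of it. For the genes that led the anti-TEAD4 comparison the differences were 0.11 for Impact, -0.10 for Mcts2, -0.33 for Cdkn1c, -0.25 for Phlda2 and -0.17 for Slc38a4. The intervals reached from -1.91 to 1.41 for Phlda2 and from -0.41 to 0.63 for Impact, so that the precision differed widely between genes.

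The anti-TEAD4 pools were also set against the control pools 1 at a time. On replicate a alone 11 of 34 genes lay below and 13 above the range of the 4 control pools (28.7% and 40.6% of all genes), and on replicate b 6 lay below and 13 above (18.5% and 26.3%). Without replicate b, 8 imprinted genes passed an adjusted p of 0.05 by limma, as did 13.3% of all genes, and without replicate a none did. The 8 were Phlda2, Tssc4 and Nap1l4, which were lower, and Cdkn1c, Kcnq1ot1, Impact, Zdbf2 and Mcts2, which were higher. In that fit the lone anti-TEAD4 pool was taken to vary like the control pools.

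Phlda2, Impact, Mcts2, Cdkn1c, Ascl2, Peg10 and Slc38a4 kept their direction on each pool. For all of them both anti-TEAD4 pools lay beyond all control pools, so that this outcome was fixed in advance. Without replicate b and without replicate a, the difference was 1.46 and 1.08 for Impact, 1.40 and 0.72 for Mcts2, 1.20 and 2.09 for Peg10, and -0.86 and -0.79 for Slc38a4. It was 0.82 and 0.38 for Cdkn1c and 0.865 and 0.295 for Ascl2, so that replicate a carried most of both. In the same order it was -1.62 and 0.16 for Nap1l4, -0.80 and 0.24 for Tssc4, 1.17 and -0.34 for Kcnq1ot1, -0.55 and 0.62 for Mest, -0.39 and 0.67 for Sgce and -0.15 and 0.50 for Igf2r. These last 6 genes changed sign with the pool and lay over 0.5 from the control mean in at least 1 pool. Other genes changed sign with smaller differences, among them Ube3a (0.49 and -0.18), Plagl1 (0.22 and -0.08) and Peg3 (-0.225 and 0.055).

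**Figure D4:**
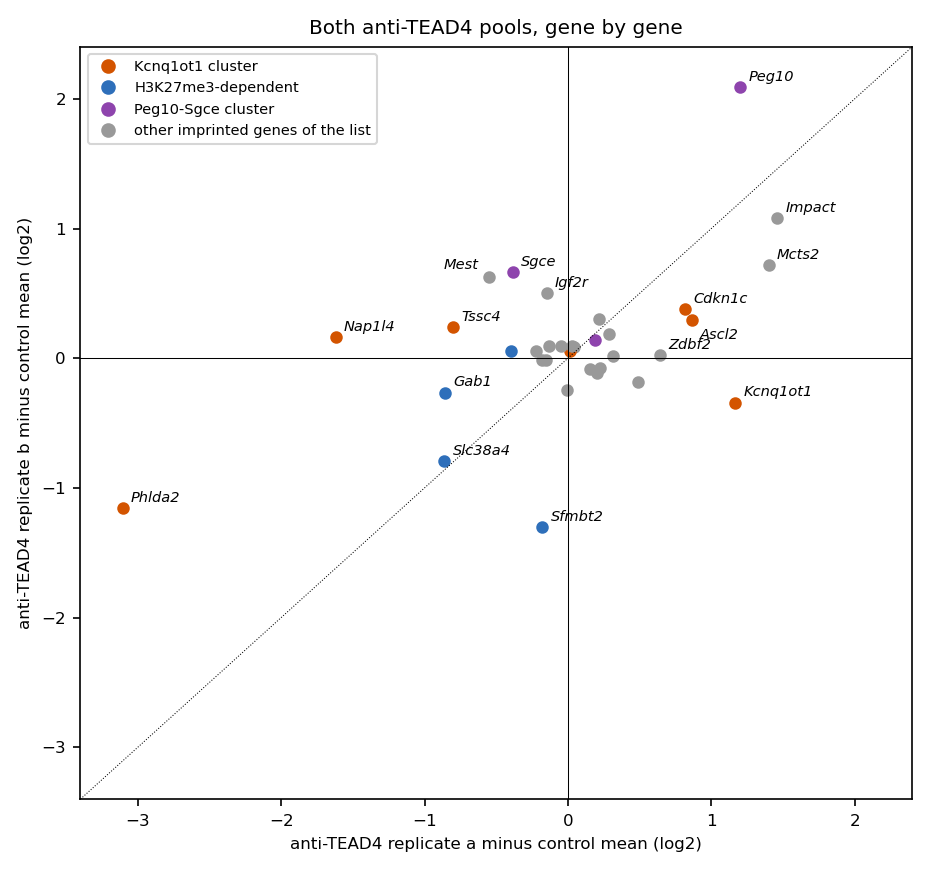
Log2 intensity minus the mean of the 4 control arrays in anti-TEAD4 replicate a (horizontal) and replicate b (vertical), with 1 point for each of the 34 imprinted genes and a dotted line where both are equal. Genes named lie over 0.5 from the control mean in either pool. Impact, Mcts2, Peg10, Cdkn1c, Ascl2 and, near the axis, Zdbf2 lie in the upper right, Phlda2, Slc38a4, Gab1 and Sfmbt2 in the lower left, and Nap1l4, Tssc4, Mest, Sgce, Igf2r and Kcnq1ot1 in the quadrants where the pools disagree.

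Proteins that set or keep imprints were read from a list of 28 genes, 27 of them measured. At an unadjusted p under 0.05, 4 were lower with anti-TEAD4 and 0 higher, beside 4.44% and 4.06% of all genes. With both anti-TEAD4 pools considered, 8 were below every control pool and 0 above, beside 7.68% and 11.4% of all genes. Negative differences were found for 21 of 27, with a median of -0.20 beside 0.06 over all genes. Of the 27, 2 were near background, beside 40.5% of all genes, so that all genes are not a like background for this list. Among all genes not near background, 11.6% lay below every control pool and 8.25% above. Dnmt3b, a DNA methyltransferase that writes new marks, had 8.72 and 8.95, then 8.82 and 8.68, then 7.43 and 8.09, a difference of -1.03 (standard error 0.22, limma adjusted p = 0.361). Ehmt2, a histone H3 lysine 9 methyltransferase, had 8.40 and 8.62, then 8.52 and 8.22, then 7.02 and 7.88, a difference of -0.99 (standard error 0.27), and its partner Ehmt1, at 6.81 and 6.80, then 6.67 and 6.54, then 6.47 and 6.2, one of -0.37. Ezh2, which writes H3 lysine 27 methylation, had 12.02 and 12.24, then 12.22 and 12.33, then 11.66 and 11.86, a difference of -0.44 (standard error 0.14). Among genes that guard imprints in the cleaving embryo, Zfp57 had 5.89 and 6.06, then 6.25 and 6.35, then 5.86 and 5.86, while Trim28 had a difference of -0.46 (standard error 0.24) and Dppa3 one of 0.04 (standard error 0.13). The maintenance methyltransferase Dnmt1 had 8.77 and 9.00, then 8.89 and 8.73, then 7.63 and 8.74, so that replicate a alone lay below the control pools (difference -0.66, standard error 0.32).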

How the data were processed

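RNA of each pool was hybridized to 1 array. The authors deposited log2 intensities made by robust multiarray averaging, which subtracts background, aligns the arrays and sums up the probes. Their tool was the Affymetrix Expression Console, with the version not given in the sources used here. Of 65956 rows, 1 was left out because its deposited value for 1 array cannot be a log2 intensity, so that this column was recorded as other and used as log2. A gene was read from its brightest row with 1 symbol. A model of 3 group means was fitted over all 6 arrays and 30175 genes with limma 3.58.1 in R 4.3.3 (3 residual degrees of freedom, a prior worth 2.517 more, and a prior SD of 0.198), with no filter on dim genes, and Benjamini-Hochberg adjustment ran over all genes (threshold 0.05). Tables and promoters were handled in Python 3.11.15 with pandas 2.3.3. The fit was tested on simulated data with known changes.

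The imprinted genes and the gene lists were chosen with earlier results of these data known. Of the 39 imprinted genes, every array is given for genes beyond all control arrays, genes with an unadjusted p under 0.05 in any comparison, 5 known pairs and the Kcnq1ot1 cluster. The pools of a group are separate samples of 10 embryos. P-values measure only the spread between them, and precision is limited by the number of arrays. Alternatives were each array left out, the replicate letter as a block, median centring, quantile normalization, an intensity trend, dim genes left out, the mean of a gene's rows, only the groups compared, the methods' t-test, and an unmoderated analysis of variance.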

Additional observations from a re-analysis of the deposited data

How the results depend on the processing

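The count of imprinted genes past an adjusted p of 0.05 was 0 in all 4 comparisons and under all alternatives other than leaving out anti-TEAD4 replicate b. With each array left out in turn it ranged from 0 to 8 against both control groups, from 0 to 6 against Trim21 mRNA and from 0 to 6 against anti-GFP, and the upper values came without anti-TEAD4 replicate b. These upper values rest on a single anti-TEAD4 array. The share of all genes that passed in that setting is given above for both control groups together. Against each control group alone it is not given, so those upper values cannot be judged against all genes. With each array left out in turn, the count below all control arrays ranged from 2 to 11 and the count above them from 7 to 13. The upper limits came without an anti-TEAD4 array, so that a single array had to lie outside. There the shares of all genes were 28.7% below and 40.6% above without replicate b, and 26.3% above without replicate a. Without anti-GFP replicate b the count below was 6 (10.2% of all genes). The count above was 4 under quantile normalization (6.91% of all genes) and 5 under median centring (5.65%). With dim genes left out it was 4 (7.67% of the genes kept), because Ascl2, Nnat and Zim1 drop from the count. In the main fit it was 7, beside 11.4% of all genes. The median difference against both control groups was -0.0788 under median centring and -0.0389 under quantile normalization, which lowered the median of all genes by -0.13 and -0.10. Relative to all genes the imprinted genes' median did not move by as much as 0.01. No gene named as beyond all control arrays reversed under the alternatives in which single genes were followed. With an array left out or the replicate block, this was fixed by how these genes were named. Single genes were not followed under the intensity trend, only the groups compared, the methods' t-test or the unmoderated analysis of variance. The methods' t-test passed 1 imprinted gene against both control groups at an unadjusted threshold of 0.01, Impact, beside 2.32% of all genes, and 0 in the other comparisons (0.941%, 0.762% and 0.766% of all genes).

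With the replicate block, the count of imprinted genes called was 0 in every comparison. Whether pools with the same letter were prepared together is not given in the sources used here. The correlation of the a minus b differences over all genes was -0.51 between Trim21 mRNA and anti-GFP. It was 0.21 between Trim21 mRNA and anti-TEAD4, and -0.25 between anti-GFP and anti-TEAD4, and these values cannot decide that question.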

Other observations

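A further 40 imprinted genes outside the list were looked up, of which 35 were measured. At an unadjusted p under 0.05 against both control groups, 4 were lower with anti-TEAD4 and 1 was higher (beside 4.44% and 4.06% of all genes), and the median difference was 0.02. In both anti-TEAD4 arrays 7 lay below and 3 above all control arrays (beside 7.68% and 11.4% of all genes). Copg2, a coatomer subunit whose locus overlaps that of Mest, had 7.75 and 7.77 in the Trim21 mRNA pools, 7.79 and 7.67 in those with anti-GFP, and 6.29 and 7.25 in the anti-TEAD4 pools, a difference of -0.98 (standard error 0.28, limma adjusted p = 0.49). Dhcr7, the last enzyme of cholesterol synthesis, had 8.17 and 8.09, then 8.37 and 8.05, then 6.85 and 7.53, a difference of -0.98 (standard error 0.23, limma adjusted p = 0.4). Ddc, at 6.83 and 6.88, then 6.85 and 6.72, then 6.54 and 6.17, had a difference of -0.47. Nap1l5, near background at 3.68 and 3.62, then 3.47 and 3.77, then 2.94 and 3.28, had one of -0.53. Qpct was the 1 higher gene, at 4.49 and 4.42, then 4.43 and 4.78, then 4.90 and 5.12, a difference of 0.48 (standard error 0.16, limma adjusted p = 0.53). None of these passed an adjusted p of 0.05.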
